A study of Sus scrofa with 10 samples.

Results

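The genes described here encode fibronectin and 9 matricellular proteins, 10 genes of the 27376 in the deposited table. They were chosen by name as POSTN, SPARC, TNC, THBS1, THBS2, CCN1, CCN2, FN1, TGFBI and SPP1. All 10 were found, and 2 of them stand in the table under older names, CCN1 as CYR61 and CCN2 as CTGF. Matricellular proteins are secreted into the extracellular matrix, where they bind cell surface receptors, growth factors and other matrix proteins more than they bear load. Fibronectin, by contrast, is a fibril-forming glycoprotein on which other matrix proteins assemble. Several of these genes are low in quiet connective tissue and high in wounds, fibrosis and growing tissue, where TGF-beta signalling and the Hippo-YAP pathway drive many of them.

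The study asked whether pig germ cells influence how testis tissue is remodelled after transplantation. Pig (Sus scrofa) polyA RNA was measured in 10 libraries by counting reads at the 3' ends of transcripts. FO grafts (n = 4) came from primary testicular fibroblasts alone, and GF grafts (n = 4) from primary germ cells and testicular fibroblasts together. In both, the cells were placed with concentrated Matrigel under the dorsal skin of what the labels call a SKID mouse, and the tissue was taken after 6 months. Control libraries (n = 2) came from pig testis. The control titles begin with 5D, a code given no meaning in the labels, and the age of that tissue is therefore not known here and cannot be told apart from other differences. The labels also give the control libraries the growth conditions and cell type of the GF grafts, so their group was taken from their titles. No donor, sex, breed or number of host mice is given, nor whether each replicate is an animal or culture of its own. P-values therefore measure the spread between these samples, which may be technical.

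Total counts were 5844944 and 7013911 in control, 4033509 to 4887878 in FO and 2915534 to 4917325 in GF, with the lowest totals in GF 3 and GF 4. Markers of germ cells summed to 506 to 2625 CPM (counts scaled to library size) in GF, 2.54 to 9.14 CPM in FO and 82.8 to 90.2 CPM in control. This order goes with germ cells being named for GF and not for FO. Sertoli markers, with CLU leading the sum, reached 4806 to 8730.5 CPM in FO, 14839 to 45584 CPM in GF and 4852 to 5416 CPM in control. Leydig markers summed to 490 to 3747 CPM in FO, 1430 to 3096 CPM in GF and 14093 to 16710 CPM in control. The source of both in FO was not tested. FO 1 and GF 3 carried skeletal muscle markers, at sums of 753 and 193 CPM, while no other library exceeded 26.4 CPM. All 13 fibroblast markers were detected in every group. Reads were assigned to pig genes, and the part that cells of the mouse host play in them was not tested. Values below are CPM scaled with TMM factors, which adjust each library for its composition. They count 3' ends, so levels are compared between libraries of 1 gene and not between genes. Splice forms, such as those of FN1 and TNC, are not seen by this method.

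Most of these genes were highest in FO grafts and lower in GF grafts. In GF versus FO, SPARC, POSTN, SPP1, TGFBI and THBS2 fell, and none of the 9 genes tested rose. A call means that edgeR's quasi-likelihood test gave an adjusted p (Benjamini-Hochberg, over all genes) below 0.05, and 30.5% of 13782 genes were called and 13.0% were called lower. The median log2 fold change of the 9 was -1.31, against -0.02 over all genes tested. TNC had too few counts to be tested in this comparison. GF and FO did not overlap for 5 of the 10 genes (SPARC, POSTN, SPP1, TGFBI and FN1), all lower in GF, against 36.0% of all genes tested (18.2% lower and 17.8% higher). In FO versus control only POSTN and SPP1 rose, 2 of 10 tested, and none fell. Over all genes 8.12% were called higher and 10.6% lower, 18.7% in either direction. FO lay wholly above control for 6 genes (POSTN, SPARC, TNC, THBS2, CCN1 and SPP1) and wholly below for none, where 58.7% of all genes did not overlap (26.7% higher and 32.0% lower). TNC was at 0 in both control libraries and so could not lie below them, and its place among the 6 rests on 1 count in FO 4. In GF versus control only TGFBI fell, 1 of 10, and none rose. Over all genes 11.8% were called lower and 14.0% higher, 25.8% in either direction. GF lay wholly below control for FN1 and TGFBI and wholly above for none, where 47.2% of all genes did not overlap (25.3% lower and 21.9% higher). The 3 comparisons share libraries and are given side by side.

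**Figure D1:**
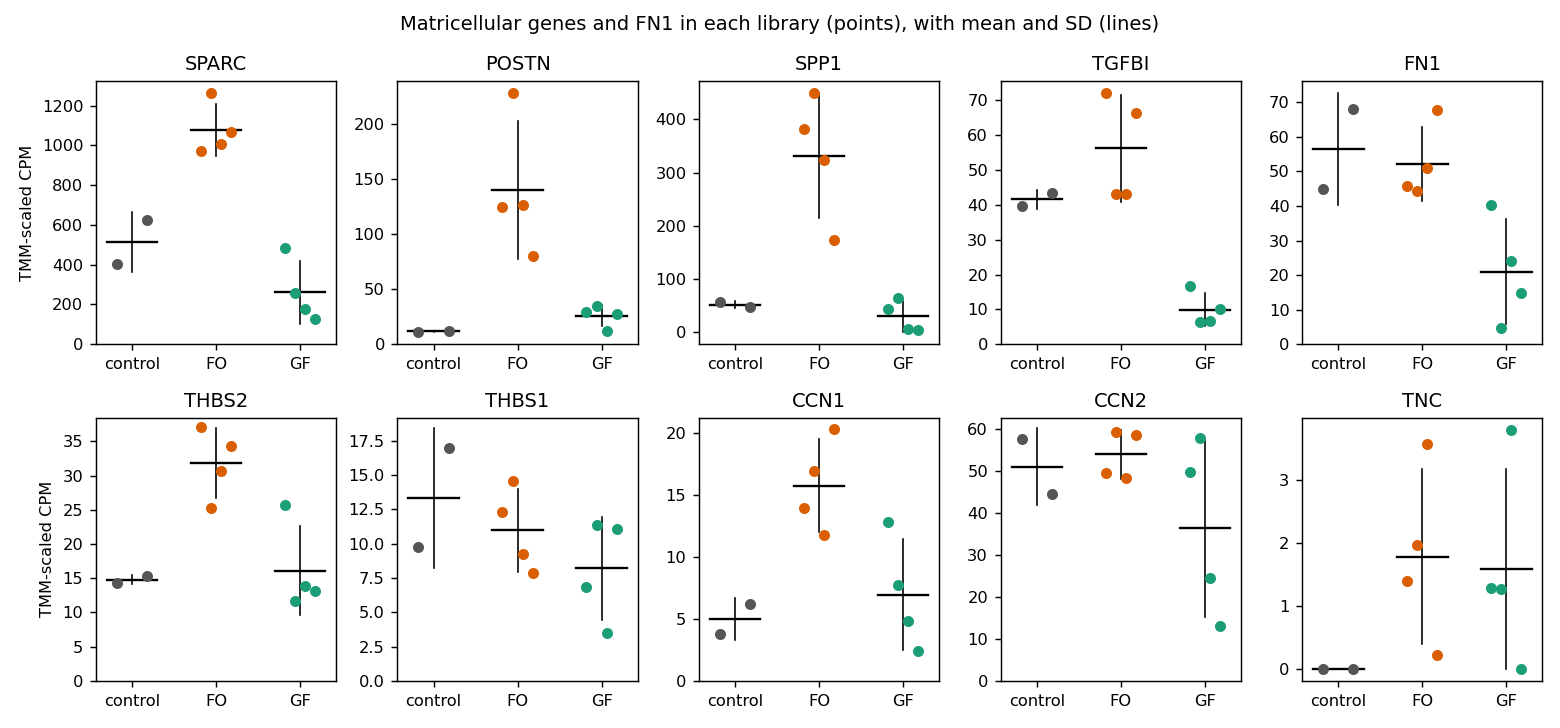
TMM-scaled CPM (vertical axis, linear, a separate scale for each gene) of the 10 genes in control testis (2 libraries), FO grafts (4) and GF grafts (4). Each point is a library, with horizontal lines at the mean and vertical lines of 1 SD. For SPARC, POSTN, SPP1, TGFBI and FN1 every GF point lies below every FO point, and TNC is at 0 in both control libraries.

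SPARC, also called osteonectin, is a collagen-binding protein that assists the deposition of fibrillar collagen (chromosome 16, 71368164 to 71380972, build Sscrofa11.1). It stood at 969.7, 1265, 1005 and 1065 CPM in FO 1 to FO 4. In GF 1 to GF 4 it stood at 484, 256, 176 and 126 CPM, and in control at 406 and 622 CPM. All GF libraries lay below all FO libraries, while GF and control overlapped. SPARC fell 4.14-fold in GF versus FO (log2 fold change -2.05 ± 0.36 SE, adjusted p = 0.00163). Against control the log2 fold change was 1.07 ± 0.43 for FO (adjusted p = 0.107) and -0.98 ± 0.40 for GF (adjusted p = 0.0888), and neither passed. The FO libraries were all above the control libraries. Without GF 1 the log2 fold change was -1.48 for GF versus control, which then passed (adjusted p = 0.00354), and that for FO versus control was 1.10 (adjusted p = 0.0233). The latter also passed without GF 4 (adjusted p = 0.0483), without GF 3 and GF 4 (0.00195), with only FO and control in the fit (1.10, adjusted p = 5.13e-04) and with DESeq2 (0.0471), so that the SPARC call in FO versus control depends on which libraries and which tool are used.

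POSTN encodes periostin, which binds collagen and integrins and is a product of activated fibroblasts (chromosome 11, 13225183 to 13258973). It was found at 124, 228, 126 and 80.5 CPM in FO 1 to FO 4 and at 29.6, 34.5, 12.1 and 27.7 CPM in GF 1 to GF 4. The control libraries had 11.4 and 12.1 CPM. The 3 groups were ordered FO, GF, control, and only the lowest GF library reached the control range. POSTN fell 5.36-fold in GF versus FO (-2.42 ± 0.38, adjusted p = 8.99e-04) and rose 11.9-fold in FO versus control (3.57 ± 0.50, adjusted p = 3.65e-04). GF versus control gave 1.15 ± 0.45 (adjusted p = 0.0751). Without GF 3 that last difference was 1.36 and passed (adjusted p = 0.0216). It also passed with DESeq2 (adjusted p = 0.0359) and with the replicate number as a block (0.0206). The same held without GF 3 and GF 4 (0.0132) and without FO 1 and GF 3 (0.0349).

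SPP1 encodes osteopontin, a secreted phosphoprotein that binds integrins and CD44 and is made by macrophages, epithelia and mineralising cells (chromosome 8, 131077786 to 131085334). Its level was 382, 449.8, 323 and 173 CPM in FO 1 to FO 4, and 42.9, 64.5, 6.21 and 3.11 CPM in GF 1 to GF 4. Control libraries had 55.9 and 46.8 CPM. Within GF, the 2 libraries of lowest depth held 18 and 9 counts, and the other 2 held 200 and 357. SPP1 fell 11.2-fold in GF versus FO (-3.49 ± 0.73, adjusted p = 0.00424), with the log2 fold change at -4.21 without GF 2 and at -2.63 without GF 3 and GF 4 (adjusted p = 3.99e-04). It rose 6.46-fold in FO versus control (2.69 ± 0.87, adjusted p = 0.046). That call was lost without any 1 of the 6 control and FO libraries, with adjusted p of 0.0534 to 0.285. GF versus control gave -0.78 ± 0.75 (adjusted p = 0.472), and without GF 3 and GF 4 it was 0.056.

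Beside SPP1, the 12 myeloid markers summed to 184.6 to 369 CPM in FO, 57.4 to 93.9 CPM in GF and 674 to 732 CPM in control. None of the 12 was at 0 in a whole group. Of 7 tested in GF versus FO, 6 fell (background 13.0% lower). The myeloid sum was highest in control, as were the means of all its markers but CD14 and MRC1. CD14 had mean values of 5.82 CPM in control, 11.5 in FO and 1.39 in GF, and MRC1 had 50.3, 79.6 and 36.2 CPM. The 7 markers of simple epithelium summed to 282 to 473 CPM in FO, 135 to 258 CPM in GF and 168 to 174 CPM in control. In GF versus FO 2 of 5 tested fell, against the same 13.0%. The 10 markers of cartilage and bone summed to 33.4 to 43.4 CPM in FO, 33.5 to 67.3 CPM in GF and 88.4 to 98.1 CPM in control. The part of all these cells in the SPP1 difference was not tested.

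TGFBI encodes an integrin-binding matrix protein named for its induction by TGF-beta (chromosome 2, 138191793 to 138225373). It stood at 72.2, 43.1, 43.2 and 66.3 CPM in FO 1 to FO 4 and at 39.6 and 43.5 CPM in control. GF 1 to GF 4 had 16.7, 6.50, 6.56 and 10.03 CPM, below every library of both other groups. TGFBI fell 5.61-fold in GF versus FO (-2.49 ± 0.36, adjusted p = 6.76e-04) and 4.14-fold in GF versus control (-2.05 ± 0.38, adjusted p = 0.0021). FO versus control gave 0.43 ± 0.39 (adjusted p = 0.493, 95% interval from -0.34 to 1.20). It was the only one of the 10 genes called in GF versus control.

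FN1, the fibronectin gene (chromosome 15, 117658158 to 117737145), was also lowest in GF, with control and FO close to each other. FO 1 to FO 4 held 45.7, 44.4, 51.0 and 67.8 CPM, and control 45.0 and 68.0 CPM. GF 1 to GF 4 held 40.3, 4.69, 24.2 and 14.9 CPM, so that the GF libraries lay below all others but differed among themselves by more than the FO libraries did. The difference did not pass in GF versus FO (-1.31 ± 0.49, adjusted p = 0.0595) or in GF versus control (-1.43 ± 0.54, adjusted p = 0.065). Without GF 1 both passed (adjusted p = 0.00992 and 0.00975), with -1.87 in GF versus FO. In GF versus FO, DESeq2 also called it (-1.33, adjusted p = 0.028). So did edgeR with no filter (adjusted p = 0.0479), with the replicate number as a block (0.0224) and with all 10 libraries in the fit (0.0413). FO versus control gave -0.11 ± 0.54 (adjusted p = 0.916).

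**Figure D2:**
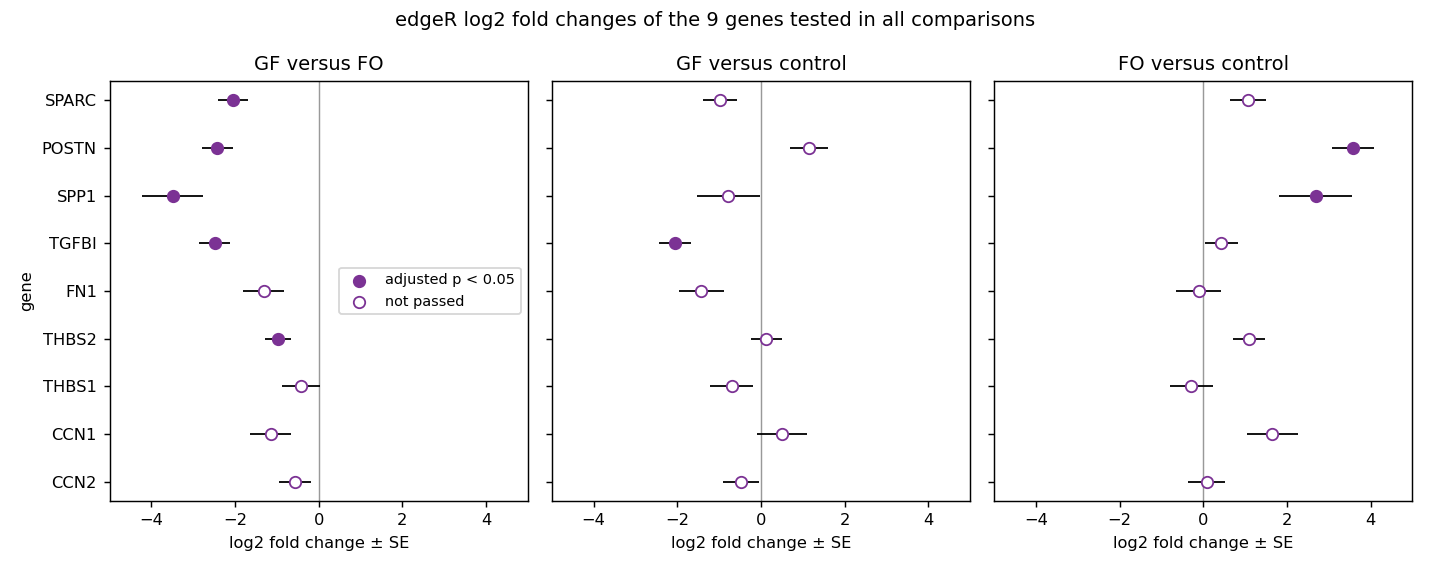
Log2 fold changes with 1 SE (horizontal axis) of the 9 genes tested in all 3 comparisons (vertical axis). Filled points passed an adjusted p of 0.05 over all genes. In GF versus FO all 9 points lie below 0 and 5 are filled, in GF versus control TGFBI is filled, and in FO versus control POSTN and SPP1 are.

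The thrombospondins are secreted glycoproteins that bind CD47, CD36 and integrins, and THBS1 can activate latent TGF-beta. THBS2 (chromosome 1, 854473 to 882467) stood at 37.1, 25.2, 30.6 and 34.3 CPM in FO, 25.7, 11.7, 13.8 and 13.1 CPM in GF, and 14.3 and 15.3 CPM in control, in order of library number. GF 1 was the high library of its group and reached the FO range. THBS2 fell 1.97-fold in GF versus FO (-0.98 ± 0.32, adjusted p = 0.0363). The call was lost without any 1 of FO 1 to FO 4 and GF 2 to GF 4, with adjusted p of 0.0542 to 0.11. In FO versus control the groups did not overlap, but 1.10 ± 0.39 did not pass (adjusted p = 0.062), and it passed without any 1 of the GF libraries (adjusted p of 0.0276 to 0.0488), with only FO and control in the fit (0.00133), without GF 3 and GF 4 (0.00551) and with DESeq2 (0.0172). GF versus control gave 0.13 ± 0.37 (adjusted p = 0.833).

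THBS1 (chromosome 1, 131728781 to 131746098) differed less between groups. It had 12.3, 14.6, 9.23 and 7.84 CPM in FO, 6.86, 11.4, 3.45 and 11.06 CPM in GF, and 9.73 and 16.9 CPM in control. The groups overlapped in every pair. No comparison passed, and GF versus FO gave -0.41 ± 0.45 (adjusted p = 0.515), with a 95% interval from -1.30 to 0.47. That interval includes the THBS2 value, so the data do not show that the 2 thrombospondins differ in response, and the difference was not tested.

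CCN1 and CCN2 encode small cysteine-rich proteins that bind integrins and heparan sulfate and are widely used as readouts of YAP activity. CCN1 (chromosome 4, 130392404 to 130395179) stood at 13.9, 17.0, 11.7 and 20.3 CPM in FO and at 12.9, 7.76, 4.83 and 2.42 CPM in GF, with 3.79 and 6.19 CPM in control. All FO libraries were above both control libraries and 3 of the 4 GF libraries lay below the lowest FO library. GF versus FO gave -1.15 ± 0.48 (adjusted p = 0.0875) and FO versus control 1.65 ± 0.61 (adjusted p = 0.0785), and neither passed. Without GF 1 both passed (-1.62, adjusted p = 0.0246, and 1.68, adjusted p = 0.0495). FO versus control also passed without GF 3 or without GF 4 (adjusted p = 0.0498 and 0.0235), without both (0.00169), with only FO and control in the fit (0.00114) and with DESeq2 (0.0195).

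CCN2 (chromosome 1, 31674398 to 31677697) was nearly level in 8 of the 10 libraries. It had 49.6, 59.4, 48.5 and 58.7 CPM in FO, 57.7 and 44.6 CPM in control, and 49.9 and 58.0 CPM in GF 1 and GF 2. GF 3 and GF 4 stood apart at 24.5 and 13.1 CPM. No comparison passed, with -0.56 ± 0.38 in GF versus FO (adjusted p = 0.284) and 0.08 ± 0.44 in FO versus control (adjusted p = 0.928). Without GF 3 and GF 4, the value for GF versus FO was -0.0099 (adjusted p = 0.975).

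TNC encodes tenascin-C, a large oligomeric glycoprotein of embryonic and wound matrix (chromosome 1, 255533235 to 255630381). It was close to the limit of detection, with 56 counts over all libraries. FO 1 to FO 4 held 5, 9, 17 and 1 counts, GF 1 to GF 4 held 6, 7, 11 and 0, and both control libraries held 0. In a single library 3 counts correspond to 0.453 to 1.04 CPM. Against a floor of 3 counts over the control group, TNC was at least 7.66-fold higher in FO and at least 6.34-fold higher in GF. These bounds fell to at least 3.66-fold and 3.03-fold without control 2, and to at least 4.91-fold without FO 3 and 4.20-fold without GF 3. They allow for counting error in the control group alone, take the graft counts as exact and treat reads as independent molecules. The spread between libraries is not covered. Neither difference passed the test (adjusted p = 0.0579 and 0.0535), and both passed without GF 4 (adjusted p = 0.0259 and 0.0229). Both also passed with DESeq2 (adjusted p = 0.0158 and 0.0154). FO versus control passed with the replicate number as a block (0.0406), and GF versus control with no filter (0.0481). TNC passed the filter on low counts through the graft libraries alone.

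The members also differed in how far they varied within a group. The coefficient of variation (SD as a percent of the mean) was larger in GF than in FO for 9 of the 10 genes, POSTN being the exception. The same held for 80.8% of 13737 genes tested in GF versus FO, so the members' count is close to that background. For SPARC the coefficient was 60.8% in GF and 12.3% in FO, for CCN2 57.9% and 10.7%, and for FN1 72.0% and 20.6%. The GF libraries fell into pairs by a chi-square of counts per gene, a measure led by genes of high count. It was 50.6 to 58.9 between GF 1 or GF 2 and GF 3 or GF 4, and 11.8 and 22.7 within those pairs (10.01 to 18.9 between FO libraries). Sertoli markers summed to 14839 and 16776 CPM in GF 1 and GF 2 and to 40372 and 45584 CPM in GF 3 and GF 4. Of these sums the gene CLU alone held 13699, 15697, 39130 and 43933 CPM in GF 1 to GF 4. AMH, INHA and FSHR were also higher in both GF 3 and GF 4, while SOX9, WT1, GATA4 and DHH overlapped between the pairs. The germ cell marker sums did not follow the pairs, at 506, 1396, 2625 and 631 CPM in GF 1 to GF 4. The part of the split into pairs in the members' spread was not tested. GF 1 was the highest GF library for 5 genes and GF 4 the lowest for 5. GF 2 was the highest for 4 genes and the lowest for 3, among them FN1. Together the 10 genes took 0.152% to 0.207% of all counts in FO, 0.0217% to 0.0784% in GF, and 0.0667% and 0.0826% in control, and SPARC held 56.1% to 71.1% of these in each library.

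The summed fibroblast markers were lower in every GF library than in any FO library, as several of these genes were, while FO and control overlapped in this sum. In bulk tissue, fewer cells of a type and less RNA per cell cannot be told apart. The 13 fibroblast markers summed to 3977 to 6199 CPM in FO, 1722 to 2868 CPM in GF and 4618 to 4714 CPM in control. COL1A1, COL1A2, COL3A1 and DCN hold most of this sum, with means of 1545, 1182, 646 and 1344 CPM in FO. The sum hides opposite shifts between FO and control. Mean CPM was higher in FO for DCN (1344 against 743) and lower for COL3A1 (646 against 1444) and LUM (5.77 against 105). In GF versus FO 6 of the 13 fell, 1 (LUM) rose and 6 did not pass (background 13.0% lower and 17.6% higher). In FO versus control, where POSTN and SPP1 rose, 1 rose, 3 fell and 9 did not pass (background 8.12% higher and 10.6% lower). The median log2 fold change was 0.096, and the FO sums lay on both sides of the control sums. The plot of marker sums by library shows these lists together.

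**Figure D3:**
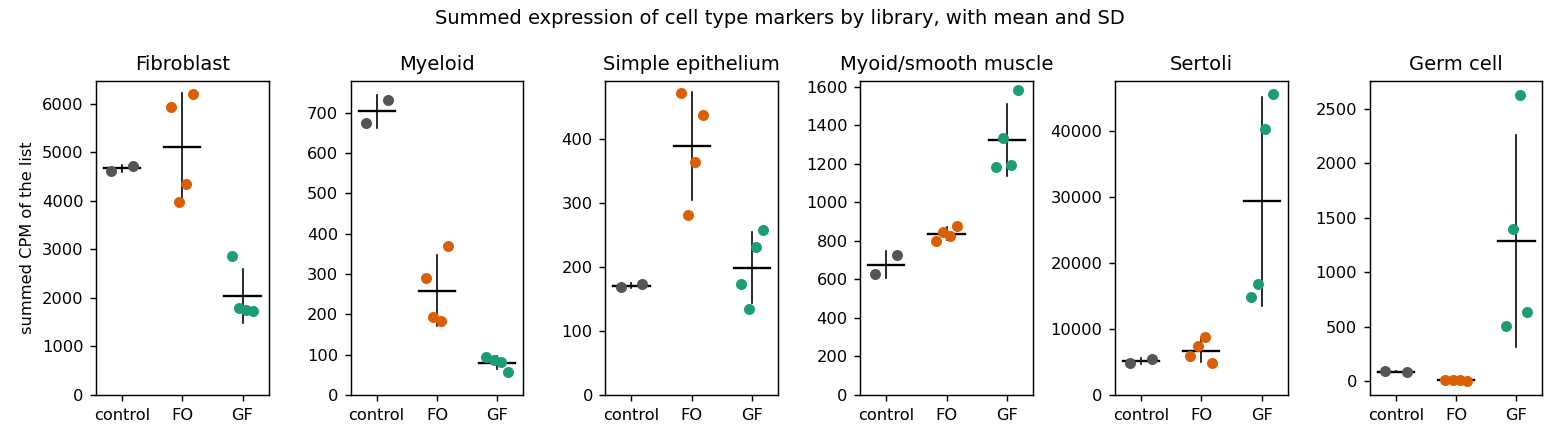
Summed CPM (vertical axis, a separate scale for each list) of marker lists for 6 cell types in the 10 libraries, with lines for the mean and 1 SD. Fibroblast and myeloid sums are below every FO library in all 4 GF libraries, and smooth muscle, Sertoli and germ cell sums are above. Most of the Sertoli sum is the gene CLU, and most of the fibroblast sum is COL1A1, COL1A2, COL3A1 and DCN.

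The 10 genes were also counted per 1000 counts of the 13 fibroblast markers in the same library, with no test, since the markers themselves moved. Most of those marker counts are COL1A1, COL1A2, COL3A1 and DCN. On this scale TGFBI alone kept GF and FO apart, at 3.62 to 5.83 in GF, 9.94 to 12.2 in FO and 8.57 to 9.23 in control. The other 9 genes overlapped between GF and FO. Over all genes tested in GF versus FO, 2.02% lay wholly lower in GF on this scale and 50.02% wholly higher. SPARC stood at 163 to 318 in FO and 73.1 to 169 in GF, with 1 GF library inside the FO range. Per 100 counts of COL1A1 alone, the chief fibrillar collagen chain and 1 of the 13 markers, SPARC was apart as well, at 48.3 to 112 in FO and 14.8 to 42.8 in GF. TGFBI was at 3.00 to 5.11 and 1.03 to 1.48 on that scale, and the other 8 genes overlapped, where 2.84% of all genes tested lay wholly lower in GF and 33.1% wholly higher. Per 1000 marker counts POSTN had 13.0 to 57.4 in FO and 6.89 to 19.2 in GF, and SPP1 28.0 to 113 and 1.81 to 35.9. FN1 had 7.71 to 11.7 in FO, 2.61 to 14.0 in GF and 9.75 to 14.4 in control.

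THBS2 had a higher median in GF than in FO on the same scale, at 7.75 and 6.30 against 3.17 in control, with ranges that overlapped (6.53 to 8.97 and 5.54 to 7.05). Both graft groups lay wholly above control for POSTN, THBS2 and CCN1 on this scale. The share of all genes that did so was not computed. The marker sum was 1722 to 2868 CPM in GF and 4618 to 4714 CPM in control, and the lower divisor raises GF values of any gene. POSTN had 2.46 and 2.56 in control, THBS2 3.11 and 3.24, and CCN1 0.821 and 1.31. The lowest graft value of each was 6.89, 5.54 and 1.41.

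**Figure D4:**
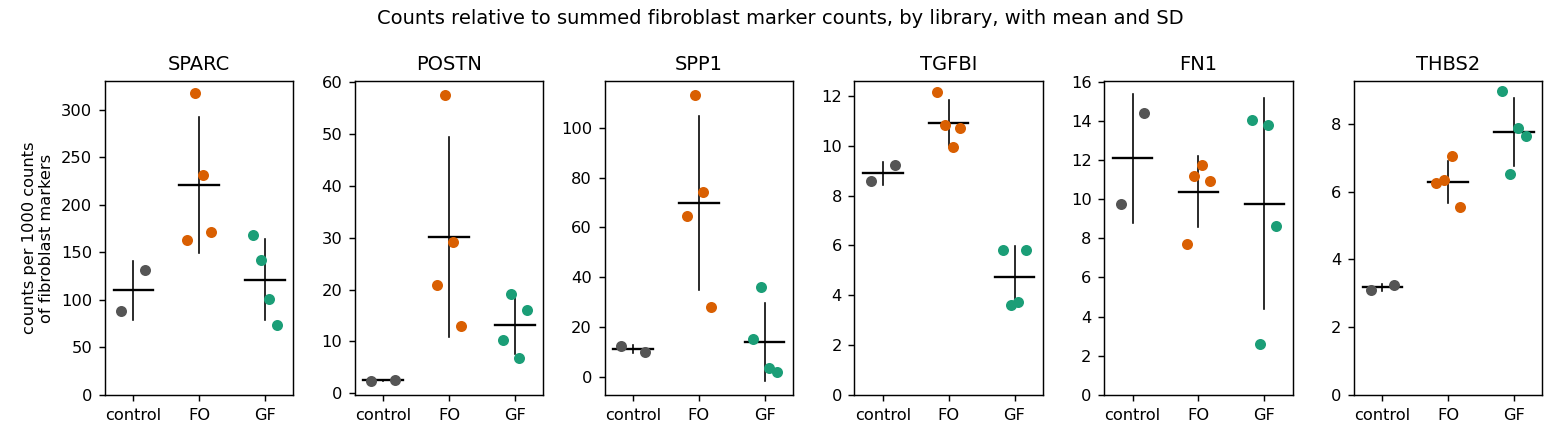
Counts of 6 genes per 1000 counts of 13 summed fibroblast markers (vertical axis, a separate scale for each gene) in each library, with lines for the mean and 1 SD. The GF and FO points of TGFBI do not overlap, and the other 5 genes overlap between GF and FO.

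Other members of the same protein families did not follow 1 direction. Of 20 relatives listed, 15 were tested in GF versus FO, and 3 rose, 2 fell and 10 did not pass (background 17.6% higher and 13.0% lower), with a median log2 fold change of -0.15. TNN, a tenascin, stood at 79.0 ± 28.7 CPM in GF and 9.57 ± 7.49 in FO (SD, n = 4) and rose by 3.03 ± 0.50 on the log2 scale (adjusted p = 0.00119, and 3.70 without FO 3). COMP, the cartilage thrombospondin, was at 0 in all FO and control libraries and at 6.22, 8.30, 108 and 13.5 CPM in GF. Against 3 counts over the FO group it was at least 157-fold higher, and without GF 3 at least 51.3-fold. COMP passed the filter on low counts through GF alone, so its place among the 3 that rose rests on the group where it is high. SPARCL1, a relative of SPARC, fell (-1.30 ± 0.31, adjusted p = 0.0078) from 121 ± 48.0 to 49.2 ± 13.1 CPM, with 335 ± 61.7 CPM in control (n = 2). CCN4 rose (1.33 ± 0.42, adjusted p = 0.0317). That call was lost without FO 1, FO 2, FO 3, GF 3 or GF 4 (adjusted p of 0.0594 to 0.0956), and without both GF 3 and GF 4 the value was 0.35. In GF versus control 5 of 16 rose and 3 fell (background 14.0% and 11.8%), and in FO versus control 4 of 16 rose and 3 fell (8.12% and 10.6%). COMP and MEPE, both at 0 in control, are among the 5, and MEPE is among the 4.

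Among 17 receptors of these proteins, 15 were tested in GF versus FO, and 5 fell, 1 rose and 9 did not pass (background 13.0% lower and 17.6% higher), with a median of -0.84. ITGAV, the integrin chain that pairs with several beta chains to bind fibronectin, osteopontin and periostin, fell from 409 ± 97.5 CPM in FO to 122 ± 45.8 in GF (-1.74 ± 0.30, adjusted p = 0.00149). Control libraries had 169.7 ± 16.9 CPM (n = 2), and ITGAV rose in FO versus control (1.27 ± 0.36, adjusted p = 0.0245). That last call was lost without control 1, control 2, FO 1 or FO 2 (adjusted p of 0.0536 to 0.231). CD47, a thrombospondin receptor, fell (-1.42 ± 0.27, adjusted p = 0.00247). ITGB5, a partner of ITGAV, fell (-0.84 ± 0.27, adjusted p = 0.0329), and the syndecan SDC1 rose (1.77 ± 0.53, adjusted p = 0.0257). The ITGB5 call was lost without any 1 of FO 1 to FO 4, GF 3 and GF 4 (adjusted p of 0.0503 to 0.0965), and that of SDC1 without FO 1, FO 2 or FO 4 (0.0606 to 0.078). In GF versus control 3 of 16 receptors rose and 6 fell (background 14.0% and 11.8%), and in FO versus control 3 rose and 2 fell (8.12% and 10.6%).

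The TGF-beta list holds ligands, receptors, Smads, latency proteins and target genes. Of its 17 genes, all tested in GF versus FO, 7 fell, none rose and 10 did not pass (background 13.0% lower and 17.6% higher), with a median of -0.77. TGFB2, a ligand, stood at 26.3 and 27.9 CPM in control, 228 to 373 in FO and 118 to 165 in GF, with no overlap between any pair of groups. It fell in GF versus FO (-0.99 ± 0.24, adjusted p = 0.0083) and rose against control in FO (3.29 ± 0.32, adjusted p = 2.80e-05) and in GF (2.30 ± 0.30, adjusted p = 2.17e-04). LTBP1 and LTBP2, latent TGF-beta binding proteins of the matrix, fell in GF versus FO (-1.94 ± 0.37, adjusted p = 0.00266, and -1.91 ± 0.34, adjusted p = 0.0019). SKIL, a Smad co-repressor that is itself a target of the pathway, fell too (-1.96 ± 0.34, adjusted p = 0.00159). In GF versus control 1 of 17 rose and 4 fell (background 14.0% and 11.8%), and in FO versus control 3 rose and 1 fell (8.12% and 10.6%).

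Of 19 Hippo-YAP genes, 17 were tested in GF versus FO, and 6 fell, 3 rose and 8 did not pass, with a median of -0.13. The 3 that rose are at the background of 17.6% higher, and 13.0% of all genes were lower. WWTR1, which encodes the co-activator TAZ, fell (-1.49 ± 0.34, adjusted p = 0.00675), as did the DNA-binding partner TEAD1 (-0.94 ± 0.22, adjusted p = 0.0082). With both FO 1 and GF 3 left out, neither of those 2 passed (adjusted p = 0.052 and 0.0569). Genes often used as targets of the pathway split, as CRIM1 fell (-1.53 ± 0.24, adjusted p = 0.00106) and NT5E rose (1.21 ± 0.23, adjusted p = 0.0027). In each comparison with control 3 of 17 rose and 3 fell, against 14.0% and 11.8% of all genes in GF versus control and 8.12% and 10.6% in FO versus control.

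**Figure D5:**
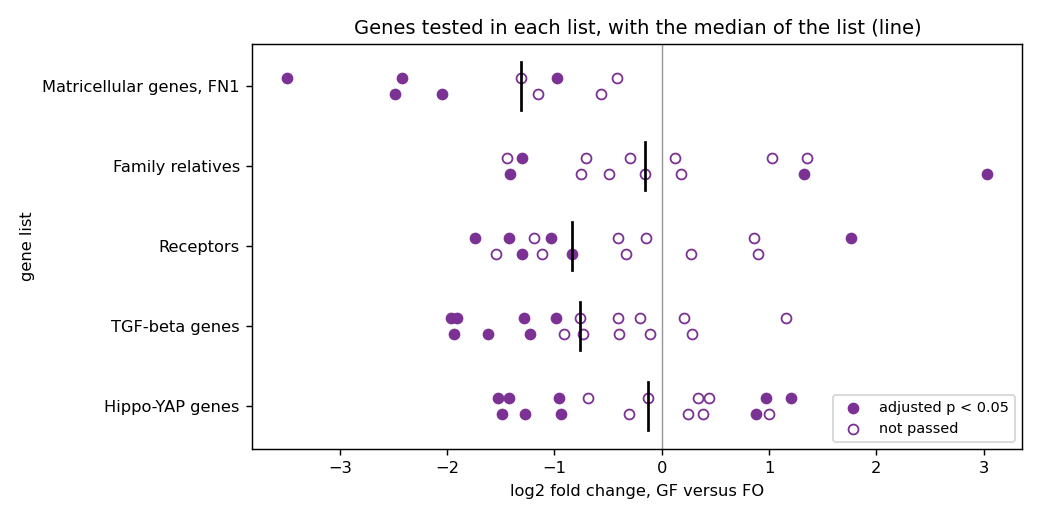
Log2 fold changes in GF versus FO (horizontal axis) of the tested genes of 5 lists (vertical axis), filled where the adjusted p was under 0.05, with a line at the median of each list. COMP is left out of the plot because it was at 0 in all FO libraries, but it counts in the median. All 9 matricellular and fibronectin values lie below 0, and the other lists spread to both sides.

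For each gene, the most similar patterns over the 10 libraries were sought among 7989 other genes by Pearson r of log2 CPM. These values describe the libraries, which share group, depth and scaling, and have no test. POSTN was most like PKP2, FGF12 and NPNT (r = 0.97 for each), and SPARC most like RPL36A, SQSTM1 and CDK6 (0.98). SPP1 was most like TUSC3, BROX and TSPAN3 (0.98 to 0.99), and TGFBI most like KBTBD11, PCDH19 and RTP4 (0.98 to 0.99). FN1 followed TEAD2 and CD34 (0.93) and CAVIN3 (0.91). THBS2 was nearest to RPA1, ZNF470 and EGR1 (0.95 to 0.98), CCN1 to POLR2H, ZNF362 and CMPK1 (0.95 to 0.98), and CCN2 to EPM2AIP1, GAR1 and UBE2H (0.97 to 0.98). THBS1 had weaker neighbours in NECAP1, PRRG4 and ALG10 (0.89 to 0.92), and TNC, at a few counts, in IL18, TRERF1 and WNK2 (0.84 to 0.97). Apart from TEAD2, of the Hippo-YAP list, none of these neighbours was on the lists described above.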

How the data were processed

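PolyA RNA of 10 libraries was prepared with a QuantSeq 3' kit after Trizol isolation, per the labels' protocols. The authors deposited raw counts per gene name, 1 column per library. The build Sscrofa11.1 and DESeq2 1.42.0 are named in the submitters' processing notes, with no role. The aligner, the counting program and whether it used strand are not stated, so antisense or overlapping genes are uncertain. Columns named F were matched to the titles of FO.

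Genes were filtered with filterByExpr (minimum count 10), scaled with TMM and tested with edgeR 4.0.16 in R 4.3.3 (robust quasi-likelihood F test), with Benjamini-Hochberg adjustment over all genes and calls at an adjusted p under 0.05. GF versus FO used the 8 graft libraries. The comparisons with control used all 10, because control has 2. CPM rest on the counts of genes that passed the filter in all 10 libraries. The procedure was tested on simulated counts.

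The members and lists were chosen with earlier results of these data known. Named were all 10 members, the 4 genes with the lowest p in GF versus FO of the relatives, receptors, TGF-beta and Hippo-YAP lists, and the 3 genes of highest r for each member (average log2 CPM of at least 4, prior count 2, names starting LOC left out). Coordinates are those of the RefSeq table of the build. The 13 kinds of alternatives are given under the dependence on processing.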

Additional observations from a re-analysis of the deposited data

Results flagged for a closer look

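In groups of 4 libraries, a library was singled out where its gap to the next exceeded Dixon's 95% critical value for the group's range. Of 72 groups tested 6 met this, and chance gives about 1 in 20. THBS2 in GF was highest in GF 1, at 25.7 CPM against 13.8 CPM in the next library. The fibroblast marker sum in GF was also highest in GF 1, at 2868 CPM against 1797 CPM in the next. COMP in GF reached 108 CPM in GF 3, against 13.5 CPM in the next library. TGFB2 in FO was highest in FO 1, at 373 CPM against 232 CPM in the next. The sum of skeletal muscle markers was 753 CPM in FO 1, where the next FO library had 9.53 CPM, and 193 CPM in GF 3, where the next GF library had 6.91 CPM.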

How the results depend on the processing

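POSTN, SPARC, TGFBI and SPP1 in GF versus FO kept their direction and their call in all 20 alternatives, as TGFBI did in GF versus control and POSTN in FO versus control in all 22. The count of members called in GF versus FO stayed between 4 and 7 (main 5). With single libraries left out it ranged from 4 to 7. In GF versus control (main 1) it was 3 with DESeq2, 2 with no filter, 2 with the replicate number as a block (replicate block), 2 without GF 3 and GF 4, 2 without FO 1 and GF 3, and 1 to 3 with single libraries left out. In FO versus control (main 2) it was 6 with DESeq2, 1 with total counts as scaling, 1 with no filter, 1 against a fold of 1.5, 4 with the replicate block, 5 with only FO and control in the fit, 5 without GF 3 and GF 4, 1 without FO 1 and GF 3, and 1 to 6 with single libraries left out. The cause of these shifts was not tested.

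Same-numbered FO and GF libraries had correlations of their deviations of 0.0549 to 0.218 over 4 pairs, and 4 of 8 libraries correlated best with their own number. FO 1 and FO 2 correlated positively with GF 1 and GF 2 (0.0549 to 0.218), as FO 3 and FO 4 did with GF 3 and GF 4 (0.0322 to 0.108). Between these sets the correlations were -0.148 to -0.00227. Whether the numbers mark pairs or a shared batch was not tested, and the main fits did not use them. With the replicate block 6 members were called in GF versus FO, against 5.

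Values that changed sign, none of them called, were in GF versus control LTBP1 (0.071 with the block, 0.24 without GF 3 and GF 4, -0.60 to 0.034 with single libraries left out), CCN2 (0.066), SPP1 (0.056) and TEAD1 (0.067) without GF 3 and GF 4, and THBS2 (-0.22 to 0.24 with single libraries left out). In FO versus control they were THBS1 (0.013 with the block), and, with single libraries left out, THBS1 (-0.64 to 0.16), CCN2 (-0.11 to 0.27), FN1 (-0.39 to 0.20) and ITGB5 (-0.055 to 0.34).

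Total counts as scaling moved the median of all genes in GF versus FO from -0.02 to 0.13 and the share of higher calls from 57.5% to 69.1%, and ended the calls of THBS2 (adjusted p = 0.0842) and ITGB5 (0.111), and that of SPP1 in FO versus control (0.0602). Over all genes, calls in GF versus FO went from 4205 to 2456 against a fold of 1.5 and 2312 without FO 1 and GF 3. In GF versus control they went from 4091 to 2658 against that fold, 2201 with only these groups in the fit, and 1395 and 1141 without control 1 and control 2. In FO versus control they went from 2972 to 1833, 6600, 977 and 796 in the same order, and 6510 without GF 3 and GF 4. Low depth limits TNC, and the 2 control libraries limit every comparison with testis.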
